A study of Homo sapiens with 4 samples.

Results

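The transcripts of 10 factors that carry mRNA out of the nucleus were followed in RNA recovered with the m6A demethylase ALKBH5. They are the helicases DDX39B and DDX39A, the adaptor ALYREF, the export receptor NXF1 and the THO subunits THOC1, THOC2, THOC3, THOC5, THOC6 and THOC7. The members were taken by symbol, and all 10 were among the 26830 gene symbols of the expression table. The cells were NOMO-1, a human acute myeloid leukaemia line with monocytic features. All 4 libraries came from cells that carried a lentivirus for the ALKBH5 coding sequence with a 3xFlag tag and that had been selected with puromycin and sorted for GFP. After UV crosslinking, RNA was recovered on an antibody against Flag (Flag-IP 1 and 3) or taken before the pull-down (input 1 and 3), so there were 2 libraries in each group. Cells without the tagged protein are not analysed here, so the background of the pull-down was not measured, and the tagged protein was overexpressed. The labels do not state whether libraries 1 and 3 derive from independent cultures. Each limma p-value below rests on library-to-library spread, pooled in part or in full over genes, that could be technical in origin.

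The TREX complex couples the making of an mRNA to its export. The THO core, built on the scaffold THOC2, holds a DECD-box helicase, DDX39B or its paralogue DDX39A, which clamps RNA and passes it to adaptors such as ALYREF. The adaptors hand the mRNA to NXF1, which with its partner NXT1 takes it through the nuclear pore. ALKBH5 removes the methyl group of N6-methyladenosine (m6A) from RNA in the nucleus and has been linked to export of mRNA. The present values are levels of the factors' own transcripts, not of the proteins.

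Values are TPM, relative abundances that sum to 1000000 in a library and are scaled for transcript length, which leaves the sequencing depth unknown, and no counting interval is printed. Structural RNAs are here ribosomal, small nuclear, small nucleolar and other such non-coding rows, pooled. They took 92.5% and 93.6% of TPM in the Flag-IP libraries against 96.8% and 96.3% in the inputs. The median tested gene was 2.38 times higher in Flag-IP. Differences are therefore given relative to the typical gene, after dividing each library by its median ratio over tested genes. The test took in 6487 genes that averaged 1 TPM or more over the libraries. On log2(TPM + 1) values limma placed 1444 of them higher in Flag-IP, or 22.3%, and 1207 lower, or 18.6%, at an adjusted p below 0.05. As deposited, 86.6% were higher and 0.74% lower, with a median log2 difference of 0.84. Both groups came from cells with the tagged protein, so a difference describes recovery in the pull-down, not a change in expression. The RNA was pooled from many cells, and how many of them hold a transcript is not known. Of 12 monocytic and myeloid markers 6 had a mean of at least 1 TPM, CTSG, ELANE, SPI1, CEBPA, CD68 and CD33. Of the others LYZ averaged 0.945 TPM, ITGAM 0.34, FCGR1A 0.22, MPO 0.06 and CSF1R 0.02, and CD14 was listed at 0 in all libraries. Of 24 markers of lymphoid, erythroid, epithelial and fibroblast cells in the table, NKG7 alone reached 1 TPM. Summed over the 24, their level ranged between 22.6 and 24.3 TPM in Flag-IP and between 12.2 and 15.0 TPM in input, and their part in the results was not tested. ALKBH5 itself, the bait, had 10.09 and 8.91 TPM in Flag-IP and 4.62 and 4.91 TPM in input, a ratio of 1.99 that lies under that of the median gene.

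DDX39B and DDX39A are close paralogues, so it matters whether their reads can be told apart. Their coding sequences of 1284 and 1281 bases were identical at 80.0% of 1281 aligned positions, and the longest identical run was 26 bases. The stretches that hold the helicase motif DECD are shown as examples, 90 bases each in the sense of the mRNA, with capitals at the 21 positions where they differ.
DDX39B: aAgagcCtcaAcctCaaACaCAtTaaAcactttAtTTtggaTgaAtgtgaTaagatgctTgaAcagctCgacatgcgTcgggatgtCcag
DDX39A: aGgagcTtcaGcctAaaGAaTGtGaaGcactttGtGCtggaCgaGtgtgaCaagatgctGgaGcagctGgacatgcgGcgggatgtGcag
They are bases 547 to 636 of the DDX39B coding sequence and 544 to 633 of the DDX39A coding sequence in GENCODE 29. Both stretches run from exon 5 into exon 6, on GRCh38 within chr6:31535466-31536569 (minus strand) and chr19:14410315-14411058 (minus strand), spans that include the intron between them. Differences are spread through the stretch, and no 50-base window of the principal DDX39A transcript occurred in a transcript of any other annotated gene. For DDX39B 95.2% of such windows also occurred in the readthrough gene ATP6V1G2-DDX39B, which contains it. That row was listed at 0.23 and 0.70 TPM in Flag-IP and at 0 in both inputs. The small nucleolar RNA SNORD84, which lies within DDX39B, had 1.15 TPM in Flag-IP 1 and was listed at 0 in the other libraries, and SNORD117, ATP6V1G2 and the antisense gene DDX39B-AS1 were listed at 0 in all 4.

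DDX39B (chromosome 6, 31530219 to 31542448, minus strand) had the highest level of the 10 in Flag-IP and, with 1 TPM added before the logarithm, the largest difference relative to the typical gene. NXF1 stood above it with 0.1 added (1.76 for NXF1, 1.36 for DDX39B), with structural RNAs left out (2.08 and 1.61) and without input 1 (1.36 and 1.22). Its level was 30.82 and 23.23 TPM in Flag-IP 1 and 3, against 3.92 and 4.74 TPM in input 1 and 3. Both Flag-IP libraries lay far above both inputs. The means were 27.0 ± 5.37 TPM and 4.33 ± 0.580 TPM (SD, n = 2 each), a ratio of 6.24, and 6.79% of tested genes had a larger ratio. Scaled to the typical gene the levels were 17.8 and 16.6 in Flag-IP 1 and 3 against 6.53 and 6.79 in input 1 and 3, a log2 difference of 1.25 ± 0.10 (SE; limma adjusted p = 0.00090).

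DDX39A (chromosome 19, 14408819 to 14419383, minus strand), the helicase that can take the place of DDX39B in export, followed the bulk of genes instead. It had 17.77 and 14.67 TPM in Flag-IP, against 8.34 and 8.20 TPM in input. The groups did not overlap as deposited, but the ratio of the means, 1.96, was under that of the median gene. After scaling, DDX39A stood at 10.3 and 10.5 in Flag-IP and at 13.9 and 11.8 in input, a log2 difference of -0.28 ± 0.12 that did not pass (limma adjusted p = 0.11). The ratio of DDX39A was exceeded by 67.2% of tested genes.

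The order of the paralogues was opposite in the groups. DDX39B had 1.73 and 1.58 times the TPM of DDX39A in Flag-IP 1 and 3, and 0.470 and 0.578 times in input 1 and 3. This ratio is taken within a library and does not depend on how libraries are scaled. The mean log2 ratio was 0.73 ± 0.09 in Flag-IP and -0.94 ± 0.21 in input (SD, n = 2 each), a difference of 1.67, or 3.18-fold. An exact two-sided permutation test over the 4 libraries gave p = 0.333, the smallest that 6 splits allow, so this test cannot fall under 0.05 with these libraries. Leaving out a library gave differences between 1.52 and 1.82, and adding the readthrough row to DDX39B gave 1.70.

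**Figure D1:**
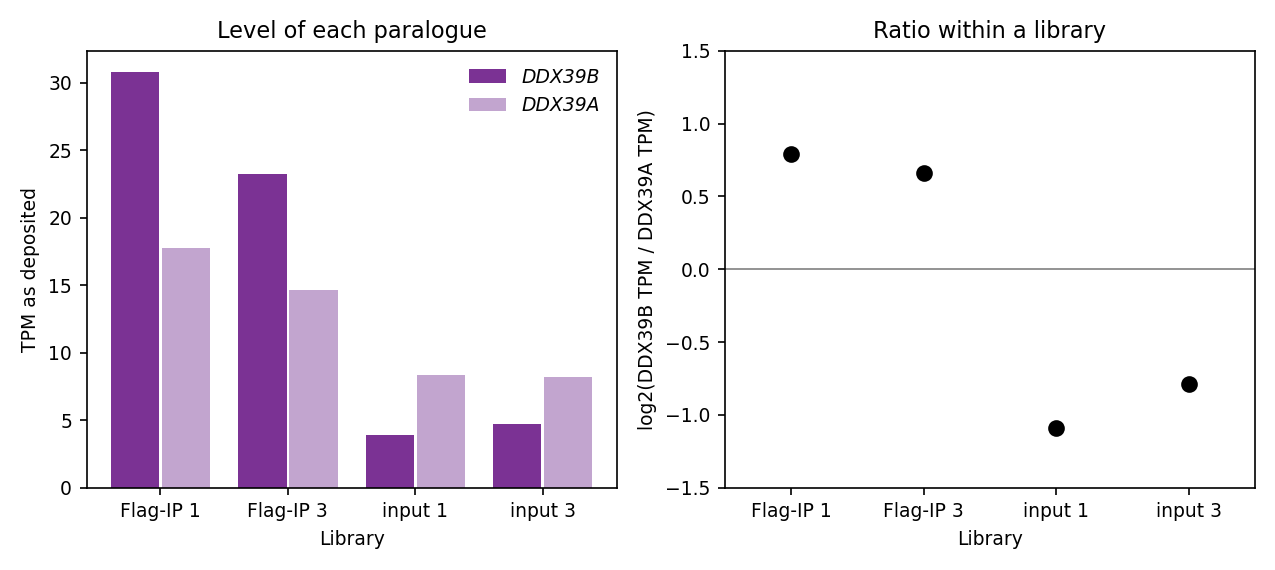
Left, TPM as deposited of DDX39B and DDX39A in each library (bars start at 0). Right, log2 of DDX39B TPM over DDX39A TPM in each library, which lies above 0 in Flag-IP 1 and 3 (0.79 and 0.66) and below 0 in input 1 and 3 (-1.09 and -0.79).

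ALYREF (chromosome 17, 81887844 to 81891586, minus strand), the adaptor that contacts both the helicase and NXF1, had 7.09 and 4.82 TPM in Flag-IP and 2.59 and 3.87 TPM in input. Flag-IP 3 and input 3 lay close. The ratio of the means was 1.84, and relative to the typical gene the difference was -0.31 ± 0.14 and did not pass (limma adjusted p = 0.13). With the trend on transcript length removed the difference was 0.02.

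NXF1 (chromosome 11, 62792123 to 62806302, minus strand), the receptor that moves bulk mRNA through the pore, had the largest ratio of the 10. NXF1 had 4.04 and 3.38 TPM in Flag-IP 1 and 3, against 0.58 and 0.28 TPM in input. Its input values were the lowest mean of the 10, and both Flag-IP libraries were far above them. The means were 3.71 ± 0.467 TPM and 0.430 ± 0.212 TPM (SD, n = 2 each), a ratio of 8.63 that 3.75% of tested genes exceeded. Relative to the typical gene NXF1 rose by 1.02 ± 0.17 on the log2 scale (limma adjusted p = 0.0063). Adding 1 to each value understates the change of a gene this low, and with 0.1 added the difference was 1.76. With structural RNAs left out of the table it was 2.08, on a scale where the median gene stood at 0.24.

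**Figure D2:**
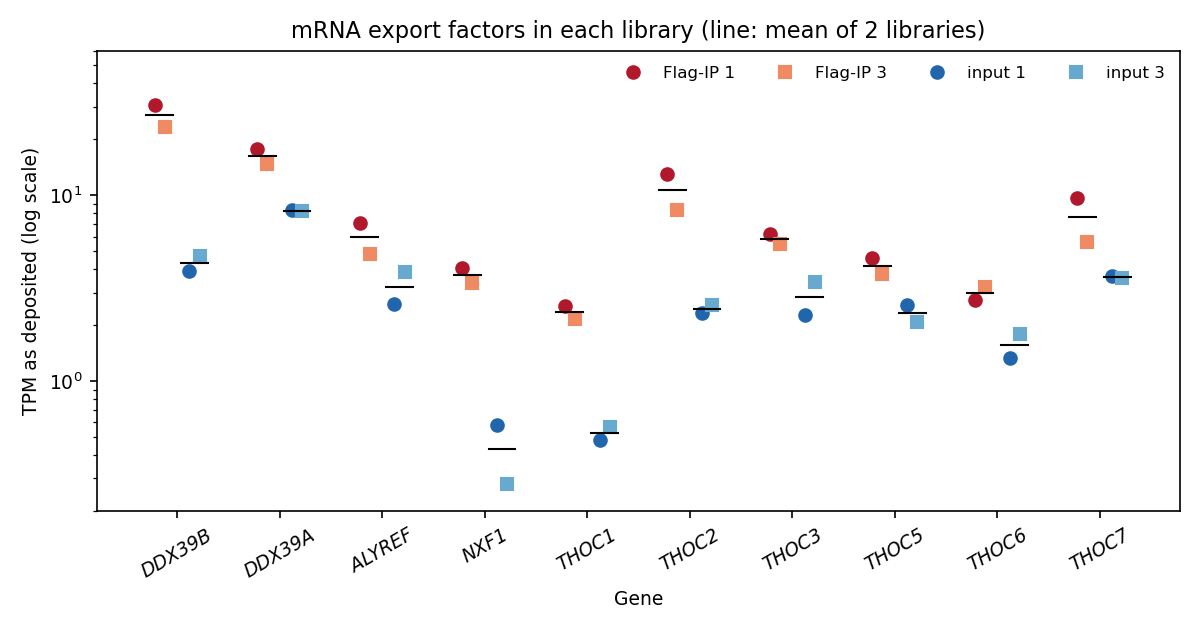
TPM as deposited (log axis) of the 10 members in Flag-IP 1 and 3 (red and orange, left of each pair) and input 1 and 3 (dark and light blue), with a line at each group's mean. The groups lie farthest apart for NXF1 (3.71 against 0.430 TPM) and DDX39B (27.0 against 4.33 TPM).

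Of the THO subunits THOC2 and THOC1 rose relative to the typical gene, and the other 4 did not pass. Of all tested genes 22.3% were higher on this scale, and differences between subunits were not tested. THOC2 (chromosome X, 123600561 to 123733056, minus strand), the large scaffold, had 13.06 and 8.29 TPM in Flag-IP and 2.32 and 2.56 TPM in input. The Flag-IP libraries differed from each other more than the inputs did, yet the groups were well apart. The ratio of the means was 4.38 and the relative log2 difference 0.69 ± 0.13 (limma adjusted p = 0.0096). With the length trend removed it was 0.46 (limma adjusted p = 0.029), over 1.5 times smaller.

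THOC1 (chromosome 18, 214520 to 268050, minus strand), the subunit first described as a partner of the retinoblastoma protein, had 2.55 and 2.16 TPM in Flag-IP and 0.48 and 0.57 TPM in input. The replicates were close and the groups did not overlap. The ratio was 4.49 and the relative log2 difference 0.47 ± 0.09 (limma adjusted p = 0.011), and with 0.1 added in place of 1 the difference was 0.83. NXF1 and THOC1 averaged under 1 TPM in input and met the filter through their Flag-IP values.

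THOC5 (chromosome 22, 29505879 to 29555216, minus strand) and THOC7 (chromosome 3, 63833870 to 63863903, minus strand) form a coiled-coil pair in THO. THOC5 had 4.58 and 3.76 TPM in Flag-IP and 2.56 and 2.08 TPM in input, the smallest ratio of the 10 at 1.80. Its relative difference was -0.32 ± 0.15 and did not pass (limma adjusted p = 0.14), but without input 3 it was -0.55 (limma adjusted p = 0.029) and with the length trend removed -0.50 (limma adjusted p = 0.043). THOC7 had 9.69 and 5.59 TPM in Flag-IP and 3.67 and 3.57 TPM in input, so its inputs were nearly equal and its Flag-IP libraries were not. Its relative difference was -0.20 ± 0.16 (limma adjusted p = 0.37), and without Flag-IP 3 the difference was 0.02.

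THOC3 (chromosome 5, 175917873 to 176034680, minus strand) and THOC6 (chromosome 16, 3024027 to 3027755, plus strand) are WD-repeat proteins. THOC3 had 6.18 and 5.44 TPM in Flag-IP and 2.26 and 3.40 TPM in input, with a relative difference of -0.16 ± 0.13 (limma adjusted p = 0.37). Of its 50-base windows 79.4% also occur in another annotated gene, so its level is uncertain. THOC6 had 2.75 and 3.22 TPM in Flag-IP and 1.34 and 1.79 TPM in input, with a relative difference of -0.21 ± 0.15 (limma adjusted p = 0.28). Of its windows 16.9% match, on the opposite strand, the transcripts of genes that overlap it, HCFC1R1 chief among them. The library kit keeps strand, but whether the counting used it is not given. For ALYREF, NXF1, THOC1, THOC2, THOC5 and THOC7 at most 2.94% of windows were shared.

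Read together, 4 of the 10 members were higher relative to the typical gene, DDX39B, NXF1, THOC2 and THOC1, against 22.3% of all tested genes, and 0 were lower in limma, against 18.6%. None was lower at an unadjusted p under 0.05 either (0 of 10). NXF1 and THOC1 entered the test through the group in which they were high, so the count of 4 is a description and nothing is read from it against that share. With a filter at 5 TPM 4 members were tested, and 2 of them, DDX39B and THOC2, were higher. Of all 1539 genes tested under that filter 392 were higher. The median over the members was -0.18, next to -0.01 for all tested genes. The 4 had ratios between 4.38 and 8.63, and the other 6 between 1.80 and 2.11. After scaling, the Flag-IP pair exceeded the input pair without overlap for 4 members, against 37% of tested genes. It lay under the input pair for DDX39A, ALYREF and THOC5, against 37.1%, and the groups overlapped for the other 3. As deposited the Flag-IP pair exceeded the input pair for all 10 members, against 93.1% of tested genes, and lay under it for 0, against 1.09%. All 10 passed as higher on that scale, with log2 differences between 0.64 (THOC5) and 2.39 (DDX39B), next to 86.6% of all tested genes, and 0 as lower, next to 0.74%. With structural RNAs left out of the table THOC1 was at 1.10 and THOC2 at 1.06, and the median gene at 0.24. Summed, the 4 had a mean of 43.8 TPM in Flag-IP and 7.73 TPM in input, and the other 6 had 42.8 TPM in Flag-IP and 21.8 TPM in input.

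The ranking of levels changed accordingly. In Flag-IP the order by mean TPM was DDX39B, DDX39A, THOC2, THOC7, ALYREF, THOC3, THOC5, NXF1, THOC6 and THOC1. In input it was DDX39A, DDX39B, THOC7, ALYREF, THOC3, THOC2, THOC5, THOC6, THOC1 and NXF1. Neighbours whose ranges overlapped in Flag-IP were THOC2 and THOC7, THOC7 and ALYREF, ALYREF and THOC3, and THOC5 and NXF1. In input they were THOC7 and ALYREF, ALYREF and THOC3, THOC3 and THOC2, THOC2 and THOC5, and THOC1 and NXF1. DDX39B made up 31.3% and 31.2% of the 10 members' summed TPM in Flag-IP 1 and 3, against 13.97% and 15.26% in input 1 and 3. For DDX39A these shares were 18.0% and 19.7% in Flag-IP and 29.7% and 26.4% in input.

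**Figure D3:**
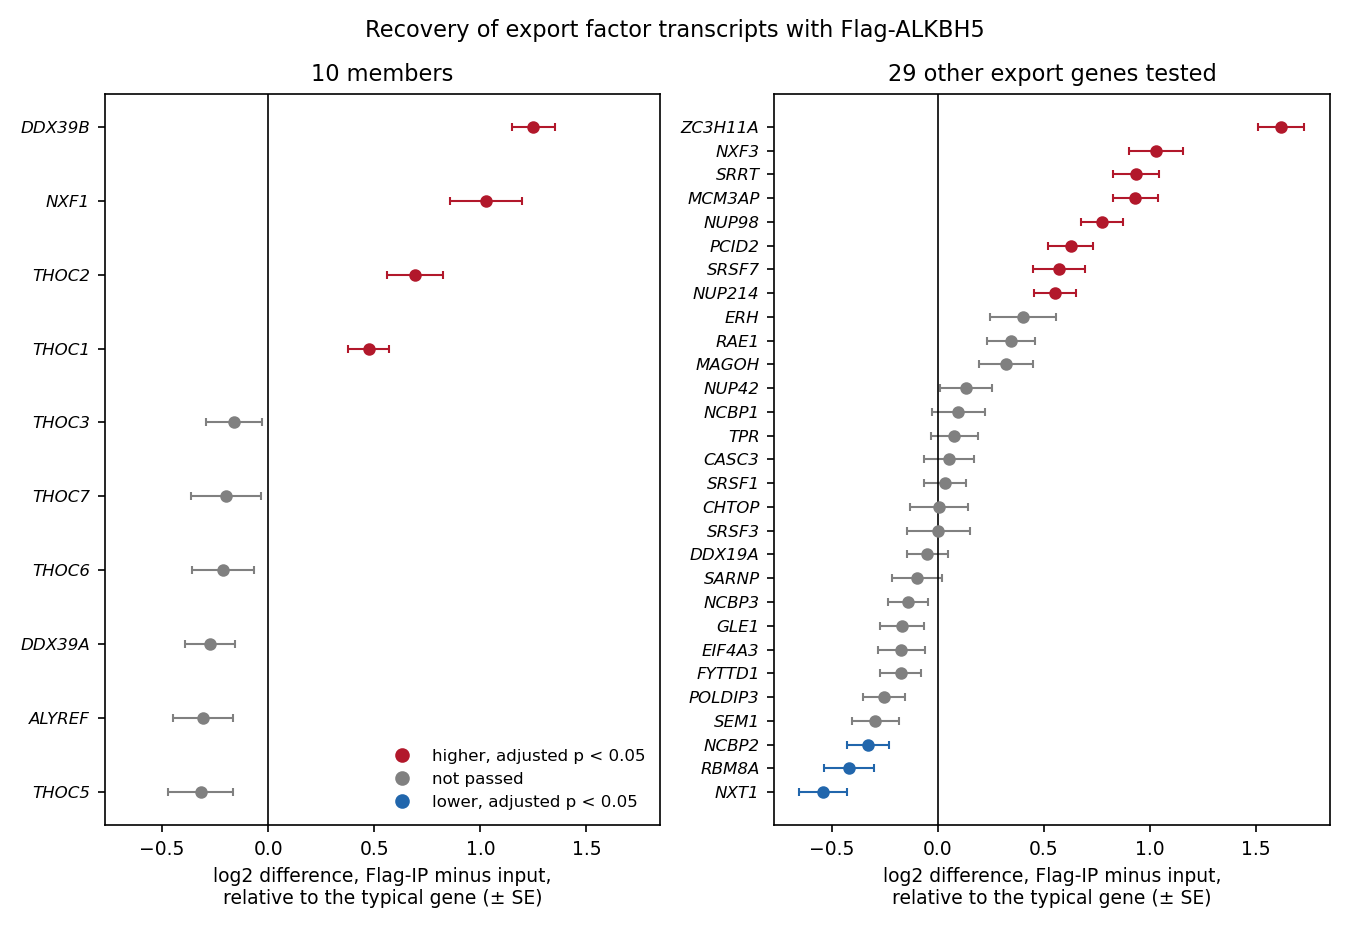
Log2 difference of Flag-IP minus input relative to the typical gene, with its SE, for the 10 members (left) and the 29 other export genes tested (right), from the limma fit over all tested genes. Red points are higher and blue points lower at an adjusted p below 0.05, and the highest values are DDX39B at 1.25 among the members and ZC3H11A at 1.62 among the others.

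A wider list of 38 other export genes was read from the same fit, and 29 of them had a mean of at least 1 TPM. Relative to the typical gene 8 of the 29 passed as higher and 3 as lower, and the median was 0.05. As deposited 27 of the 29 were higher in limma, next to 86.6% of all tested genes, and 0 lower, next to 0.74%. At an unadjusted p under 0.05 the lower ones were also 0 on that scale. On the relative scale 22.3% of all tested genes were higher and 18.6% lower.

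Among 7 tested adaptors that work beside ALYREF, 1 was higher. This was ZC3H11A, a zinc finger protein of the extended TREX complex, with 29.04 and 21.27 TPM in the Flag-IP libraries against 2.59 and 3.32 TPM in input. Its ratio of 8.51 was close to that of NXF1, and its relative difference was 1.62 ± 0.11 (limma adjusted p = 0.00056), or a difference of 1.16 with the length trend removed. The other 6 were SARNP, CHTOP, POLDIP3, FYTTD1, NCBP3 and ERH.

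The tested relative and the tested partner of NXF1 had differences of opposite sign relative to the typical gene. NXF2, NXF5 and NXT2 averaged under 1 TPM and were not tested. NXF3, a relative of NXF1, was at 13.34 and 13.49 TPM in Flag-IP and 2.23 and 2.61 TPM in input, above NXF1 in all 4 libraries. It rose by 1.03 ± 0.13 (limma adjusted p = 0.0026). NXT1, the small partner of NXF1, was lower relative to the typical gene, at -0.54 ± 0.11 (limma adjusted p = 0.013). This was not so as deposited, where NXT1 had 2.36 and 2.16 TPM in Flag-IP and 1.67 and 1.65 TPM in input (0.29, limma adjusted p = 0.17), and the call was lost without Flag-IP 1 (-0.43, limma adjusted p = 0.076) and with the length trend removed (-0.22).

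Of 3 tested members of TREX-2, the complex that ties export to the nuclear pore, 2 were higher. MCM3AP, its scaffold, had 7.14 and 6.42 TPM in Flag-IP 1 and 3 against 1.15 and 1.19 TPM in input (0.93 ± 0.11, limma adjusted p = 0.0021), and PCID2 was at 0.63. SEM1, a small acidic subunit shared with the proteasome, had the highest level of the group, 23.81 and 17.29 TPM in Flag-IP and 9.40 and 11.74 TPM in input, and did not pass (-0.29, limma adjusted p = 0.076).

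At the pore 2 of 7 genes were higher, NUP98 at 0.77 and NUP214 at 0.55, but NUP214 averaged under 1 TPM in input and met the filter through its Flag-IP values. With the length trend removed NUP98 was at 0.47 and passed (limma adjusted p = 0.016), and NUP214 lost its call (difference 0.23, limma adjusted p = 0.13). TPR, of the nuclear basket, was at 0.08 and did not pass (-0.32, limma adjusted p = 0.0497, with the length trend removed). SRRT, which joins the cap-binding complex to RNA processing, had 17.02 and 14.27 TPM in the Flag-IP libraries against 2.68 and 3.55 TPM in input (0.93 ± 0.11, limma adjusted p = 0.0021). NCBP2, the cap-binding subunit, was lower relative to the typical gene at -0.33 (limma adjusted p = 0.043) but higher as deposited (0.45, limma adjusted p = 0.029). NCBP2 lost the call when any of the 4 libraries was left out (-0.39 to -0.27). The call was also lost with structural RNAs left out (-0.28), no filter (-0.35), the replicate block (-0.33) or the length trend removed (-0.22). In the exon junction complex RBM8A was lower relative to the typical gene at -0.42 (limma adjusted p = 0.033), while its difference as deposited was 0.29. The call of RBM8A was lost without Flag-IP 1 (difference -0.32), without Flag-IP 3 (-0.43) and without input 3 (-0.34). It was also lost with structural RNAs left out (limma adjusted p = 0.091) and with no filter (limma adjusted p = 0.084). EIF4A3, the helicase of the complex, was at -0.17 and did not pass. Of 3 SR proteins that act as NXF1 adaptors SRSF7 was higher at 0.57 (limma adjusted p = 0.013), and SRSF3 was at 0.00. The call of SRSF7 was lost without Flag-IP 3 (difference 0.52), without input 1 (0.46) and with no filter (0.54, limma adjusted p = 0.053). NXT1, NCBP2, PCID2 and NUP214, and DDX39B-AS1 above, fall outside the naming rule and were chosen after their values were seen.

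Transcript length moved with the difference across the whole table. Over 6111 tested protein-coding genes, all read from the same 4 libraries, Spearman's rho between the length of the principal transcript and the relative difference was 0.47. The members' principal transcripts ranged from 990 bases (THOC7) to 5609 bases (THOC2), with a median of 1838 bases, next to 2982 bases for the tested protein-coding genes. THOC7 (990 bases), ALYREF (1088 bases), THOC6 (1419 bases), DDX39A (1471 bases) and THOC3 (1589 bases) were the shortest members and did not pass. THOC2 (5609 bases) was the longest and was higher. DDX39B (2133 bases), THOC1 (2087 bases) and NXF1 (2795 bases) lay between, shorter than the median tested gene, and were higher. THOC5 (4753 bases) was longer than that median and did not pass. The longest annotated transcripts of DDX39B, THOC1 and NXF1 had 5158, 2791 and 4128 bases. With the length trend removed DDX39B was at 1.36, NXF1 at 1.03, THOC1 at 0.59 and THOC2 at 0.46, all past limma's threshold, and DDX39A at -0.03. The longest transcript of any type was also taken as length, a choice made after seeing the data. DDX39B was then at 1.08, NXF1 at 0.94, THOC1 at 0.53, THOC2 at 0.49 and DDX39A at -0.05. Whether length plays a part in these differences was not tested.

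**Figure D4:**
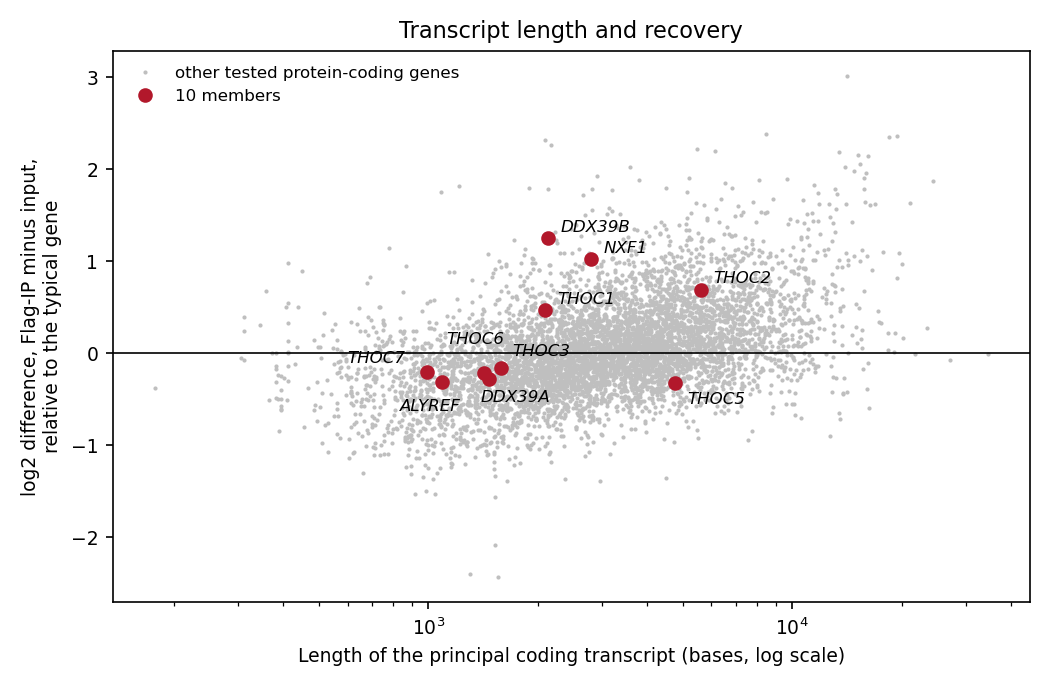
Length of the principal coding transcript (bases, log axis) against the log2 difference of Flag-IP minus input relative to the typical gene, for the 10 members (red) and the other tested protein-coding genes (grey). DDX39B and NXF1 lie at 1.25 and 1.02, while THOC5, at 4753 bases, lies at -0.32. THOC2, the longest at 5609 bases, lies at 0.69, and THOC7, the shortest at 990 bases, at -0.20.

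The motif GGACT, a form of the m6A consensus, was also counted on the sense strand of the principal transcript. Other forms of the consensus were not counted. GGACT occurred in 80% of the members and in 90.6% of the tested protein-coding genes, and ALYREF and THOC7 had none of it. DDX39A held 3 copies (2.04 per kb) and DDX39B 2 copies (0.938 per kb), where the median tested protein-coding gene had 0.957 per kb. Across the 6111 genes Spearman's rho between copies per kb and the relative difference was 0.03. A match is a string of letters, not a methylated site.

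The 3 other genes closest to DDX39B over the 4 libraries, among 1534 that averaged 5 TPM or more, were EP400, SPG11 and FNBP4. Likeness was the root mean square distance between centred log2 values on the scale of the typical gene, which was 0.018 for EP400 and SPG11 and 0.042 for FNBP4. The relative difference was 1.22 for EP400, 1.24 for SPG11 and 1.32 for FNBP4. These genes were picked by the same values, so their closeness to DDX39B in this difference was fixed by the selection. The likeness rests on values not corrected for length: with the length trend removed EP400 was at 0.74, SPG11 at 0.90 and FNBP4 at 1.19, beside 1.36 for DDX39B. Among the members NXF1 was closest to DDX39B (0.226) and THOC5 farthest (0.801), with DDX39A at 0.770.

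**Figure D5:**
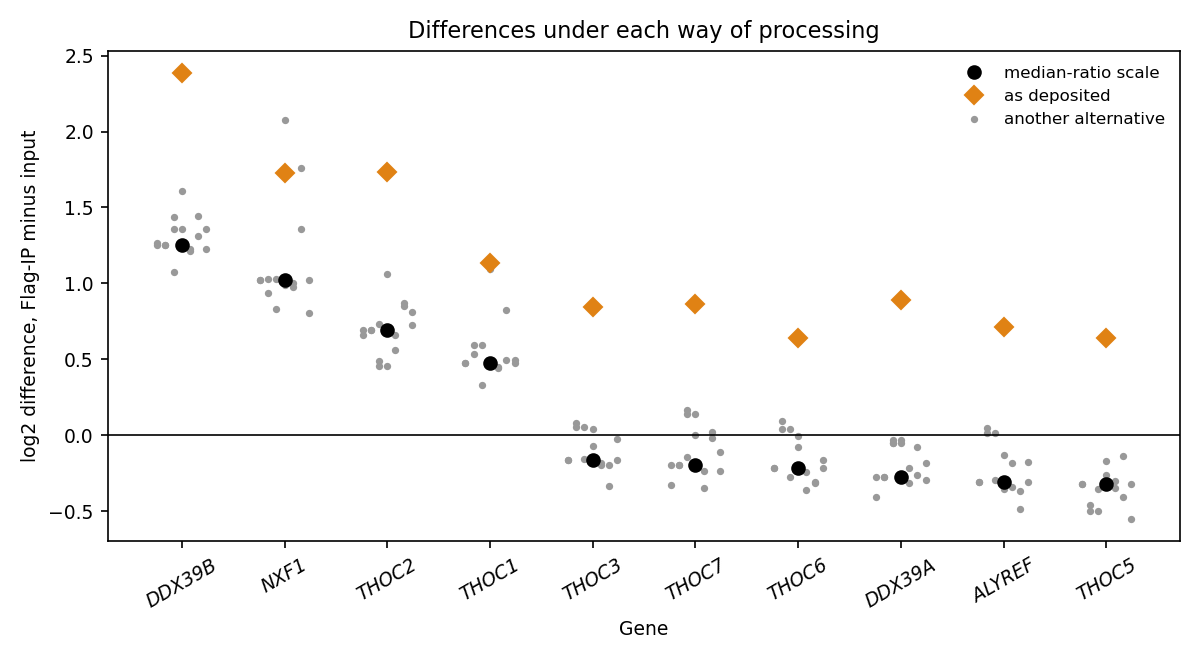
Log2 difference of Flag-IP minus input for the 10 members under each way of processing: on the median-ratio scale (black), as deposited (orange) and under the other alternatives (grey). For DDX39B, NXF1, THOC2 and THOC1 all points lie above 0, and for the other 6 the points other than orange lie between -0.55 and 0.17.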

How the data were processed

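RIP-seq was measured in 2 Flag-IP and 2 input libraries of NOMO-1 cells. The submitters' processing notes name STAR, RSEM and the build GRCh38. Their versions, the gene annotation and the strand setting are not given in the sources read. The authors deposited TPM per gene symbol, rounded to 2 decimals. TPM sums to 1000000 in each library, so a transcript's value depends on all others and keeps no depth.

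Genes averaging 1 TPM or more entered the test, on log2(TPM + 1) after median-ratio scaling (factors 1.73 and 1.40 for Flag-IP 1 and 3, 0.601 and 0.698 for input 1 and 3) with limma 3.58.1 in R 4.3.3, with a mean-variance trend, two-sided, Benjamini-Hochberg adjusted over all genes tested, at a threshold of 0.05. The prior degrees of freedom were 4.02 on the median-ratio scale and infinite as deposited. The limma p-values as deposited therefore rest on a variance trend over all tested genes, not on each gene's own spread. The fit was tested on simulated data. The log2(TPM + 1) scale understates changes of low genes. Transcripts, lengths and coordinates came from GENCODE 29 by symbol (23794 direct, 544 through synonyms, 2492 unmatched). The principal transcript is the longest protein-coding transcript among those tagged as principal. Sequences were aligned with Biopython 1.88, and windows of 50 bases were compared on both strands. Named were all members, in each functional group of the wider list the gene with the highest mean and that with the largest difference, the rows of ATP6V1G2-DDX39B, SNORD84, SNORD117 and ATP6V1G2 at the DDX39B locus, 3 genes most like DDX39B, and ALKBH5. Members and lists were chosen with earlier results of these data known.

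Alternatives were TPM as deposited, quantile scaling, structural RNAs left out, no filter or 5 TPM, a pseudocount of 0.1, no trend, the replicate number as a block, a fit with the trend on length taken out (loess with a span of 0.5) with and without that block, and each library left out.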

Additional observations from a re-analysis of the deposited data

How the results depend on the processing

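The calls of DDX39B (1.08 to 1.61 over alternatives besides the deposited scale), NXF1 (0.80 to 2.08), THOC1 (0.33 to 1.10) and THOC2 (0.46 to 1.06) kept direction and threshold in every alternative in which each was tested. A filter at 5 TPM leaves out NXF1 and THOC1. The number of genes tested differed between settings, so counts of calls are not directly comparable. It was 6487 on the median-ratio scale and as deposited, 6284 with structural RNAs left out and 1539 with a filter at 5 TPM. With a library left out it ranged from 5680 (without Flag-IP 1) to 6974 (without input 1). The filter at 5 TPM tested 7 genes of the wider list, against 29 on the median-ratio scale. The members called higher numbered 4 in every alternative except TPM as deposited (10) and that filter (2), and those lower 0 except 1 (THOC5) with the length trend removed, with the replicate block and the length trend removed together, and without input 3 (0 to 1 over the libraries left out). Over all genes, higher and lower calls were 5616 and 48 as deposited, 2206 and 711 with structural RNAs left out, 392 and 355 with a filter at 5 TPM, and 897 to 1225 and 567 to 916 with a library left out, the lowest without Flag-IP 1. In the wider list the higher genes were 27 as deposited and 3 with the filter at 5 TPM, and the lower ones 0 under both, 5 with quantile scaling or the length trend removed, 1 with structural RNAs left out or no filter, and 0 to 2 with a library left out (0 without Flag-IP 1, 1 without Flag-IP 3 or input 3).

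Signs turned to above 0 as deposited for DDX39A (0.89), ALYREF (0.71), THOC3 (0.84), THOC5 (0.64), THOC6 (0.64), THOC7 (0.86), ALKBH5 (0.86), SEM1 (0.89), EIF4A3 (0.93), RBM8A (0.29), NXT1 (0.29) and NCBP2 (0.45), where the median gene stood at 0.84. With the length trend removed, with or without the block, they turned for ALYREF (0.0150), THOC3 (0.0559), THOC6 (0.0425), THOC7 (0.14), EIF4A3 (0.0130), SRSF3 (-0.15) and TPR (-0.32), and with the longest transcript of any type as length, chosen after seeing the data, for ALYREF (0.0462), THOC3 (0.0816), THOC6 (0.10), THOC7 (0.17), SRSF3 (-0.10) and TPR (-0.30). With structural RNAs left out THOC3 was at 0.0439, THOC7 at 0.0039 and EIF4A3 at 0.0468, all still under the median gene, which that setting put at 0.24; with a filter at 5 TPM EIF4A3 was at 0.0173, and with no filter SRSF3 was at -0.0324. With a library left out THOC7 ranged from -0.35 to 0.0240, SRSF3 from -0.20 to 0.17 and TPR from -0.0013 to 0.17. Outside the deposited scale, TPR with the length trend removed and no block was the 1 turned value that passed. The cause was not tested.

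The deviations of same-numbered libraries had a correlation of -0.19 across 6487 genes. The labels do not say whether a number marks a shared culture or day, and with 2 numbers this was not tested. The replicate block gave 1286 higher and 1055 lower genes, a crossed block, chosen after seeing the data, 1409 and 1275, and 4 higher members under both; the paired differences of the DDX39B to DDX39A ratio were 1.88 and 1.45. With 2 libraries a group and depth unknown, small differences such as those of the 6 members that did not pass are not resolved.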
